A study of Mus musculus with 17 samples.

Results

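H3K27ac regions on the flanks of promoters were described in the brain of mice with a 6-hydroxydopamine (6-OHDA) lesion. A region counted as a flank region when its centre lay more than 500 bp from the transcription start site (TSS) of the gene named for it, and this rule used positions only, not signal. It took 2190 of the 11424 regions in the deposited CUT&RUN table (19.2%). Of these, 1909 lay upstream of the start (16.7% of the table, 1545 genes) and 281 lay downstream of it (2.46%, 263 genes). They were set against the 3918 regions with a centre within 100 bp of a start (34.3%). The other 5316 regions lay in between. The 2 flank regions without a gene name were kept in counts of regions. The regions just inside the limit included those of Lamtor3 at -501 bp (15.1 in sham, 14.9 in 6-OHDA and 32.78 in 6-OHDA+NDST3) and of Tmem59 at 501 bp (9.05, 9.95 and 19.9 in that order). Those just outside it included regions of Tbrg4 at -500 bp (13.12, 21.6 and 29.19) and of Ergic3 at 500 bp (8, 3.5 and 12.5). Regions of other genes stood at each of these positions too.

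All mice were wild-type ICR mice, and the 3 groups were sham controls, mice with a 6-OHDA injection on 1 side of the brain at 8 weeks of age (6-OHDA), and mice that were given NDST3 after the same lesion (6-OHDA+NDST3). 6-OHDA is a toxin taken up by catecholamine neurons. NDST3, an enzyme of heparan sulfate synthesis, was delivered 5 days after the lesion as the human gene in an AAV9 vector under the CMV promoter, which is not specific to neurons. CUT&RUN cuts and releases the DNA around an antibody target, here acetylated lysine 27 of histone H3. The label gives the tissue as brain with no region or cell type. The 2 H3K27ac libraries of a group stand in 1 pooled column, so that no spread between libraries can be given, no test was made on H3K27ac, and fewer acetylated cells and less acetylation per cell cannot be told apart. The depth behind the signal is unknown. Every region of the table had a 6-OHDA+NDST3 signal at or above its 6-OHDA signal, so the direction of that contrast belongs to the choice of regions that were listed and is not read as a result.

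H3K27ac lies on the nucleosomes beside active promoters and enhancers, while the start site itself is often short of nucleosomes. The mark therefore tends to flank a start on both sides. Many mammalian promoters are shared by a pair of genes that are transcribed away from each other, and a position downstream of one gene's start is then upstream of its partner's.

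For 5 genes named below for the size of their ratio, the core promoter is shown first. The sequences come from RefSeq (GRCm38.p6), run from 250 bases before the start to 50 after it, and were matched by symbol. By their listed distances the flank regions lie well outside these windows. Whether a window holds the start to which the flank distance refers was not checked. Capitals mark matches on either strand to the CCAAT box, to GGGCGG, which is the GC box, to CCGGAA, which is the core bound by ETS factors, and to GCGCATG, an arm of the NRF1 site. The letters TATAAA of a TATA box were searched too. So were TGACTCA for AP-1 and CACGTG for an E-box, and none of these 3 matched in the 5 windows. Windows of other genes named for their ratio were read too and are not shown, and that of Gm38250 held CACGTG. The motifs do not overlap one another here. The windows are Mettl17 chr14:51884592-51884891 (plus strand), Wwc2 chr8:47990495-47990794 (minus), Ep400 chr5:110770668-110770967 (minus), Desi1 chr15:82016171-82016470 (minus) and Atg2b chr12:105685192-105685491 (minus). The first pair have upstream flank regions and the other 3 have downstream ones.
Mettl17: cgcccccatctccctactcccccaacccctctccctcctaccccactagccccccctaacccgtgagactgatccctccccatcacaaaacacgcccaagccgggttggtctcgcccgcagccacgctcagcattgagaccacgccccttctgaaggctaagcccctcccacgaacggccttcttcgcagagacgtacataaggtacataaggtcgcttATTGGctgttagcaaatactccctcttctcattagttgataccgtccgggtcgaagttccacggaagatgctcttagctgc
Wwc2: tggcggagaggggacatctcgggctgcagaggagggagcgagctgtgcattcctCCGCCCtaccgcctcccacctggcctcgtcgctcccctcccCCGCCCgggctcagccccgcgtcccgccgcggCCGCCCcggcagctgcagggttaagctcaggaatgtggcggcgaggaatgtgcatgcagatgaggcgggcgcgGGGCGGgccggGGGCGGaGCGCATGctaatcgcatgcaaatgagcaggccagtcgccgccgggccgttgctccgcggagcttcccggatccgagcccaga
Ep400: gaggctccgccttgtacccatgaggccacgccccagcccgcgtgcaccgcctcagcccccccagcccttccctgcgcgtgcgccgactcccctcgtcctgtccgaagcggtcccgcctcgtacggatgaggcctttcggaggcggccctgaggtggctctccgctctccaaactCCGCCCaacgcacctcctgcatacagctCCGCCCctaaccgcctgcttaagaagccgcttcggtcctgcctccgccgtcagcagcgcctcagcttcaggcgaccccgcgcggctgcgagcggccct
Desi1: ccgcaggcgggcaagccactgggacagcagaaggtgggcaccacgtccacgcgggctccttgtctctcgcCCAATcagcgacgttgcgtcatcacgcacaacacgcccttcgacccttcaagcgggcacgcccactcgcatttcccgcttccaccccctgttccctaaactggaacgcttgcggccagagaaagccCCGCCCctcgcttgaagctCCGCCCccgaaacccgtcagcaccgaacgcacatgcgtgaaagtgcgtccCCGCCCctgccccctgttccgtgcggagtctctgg
Atg2b: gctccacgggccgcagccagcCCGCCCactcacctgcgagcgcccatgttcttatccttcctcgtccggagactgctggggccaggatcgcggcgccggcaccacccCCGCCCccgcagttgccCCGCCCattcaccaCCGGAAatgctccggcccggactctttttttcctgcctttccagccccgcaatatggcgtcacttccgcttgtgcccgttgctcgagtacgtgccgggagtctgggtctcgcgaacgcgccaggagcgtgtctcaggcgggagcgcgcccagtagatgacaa

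All 5 windows hold more CpG than the median promoter. They have 17 (Mettl17), 34 (Wwc2), 33 (Ep400), 30 (Desi1) and 32 (Atg2b) CpG, where the median of all 32851 promoters in the RefSeq table is 7 and the upper quartile 20, which Mettl17 does not reach. The GC box had 5 matches in the window of Wwc2, 2 in Ep400, 3 in Desi1 and 3 in Atg2b, and 35.7% of all promoters hold at least 1. CCAAT was found once in Mettl17 and once in Desi1, against 37.4% of all promoters, CCGGAA in Atg2b against 14.9%, and GCGCATG in Wwc2 against 3.91%. The windows of Ep400, Desi1 and Atg2b also hold the start of a gene on the opposite strand. That start lies 22 bp upstream of the Ep400 start (Gm15559), 111 bp upstream of the Desi1 start (Xrcc6, a subunit of the Ku complex of DNA end joining) and 55 bp upstream of the Atg2b start (Gskip).

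The upstream flank carried more H3K27ac signal than the start site in all 3 groups. The median tag signal of the upstream flank regions was 16.52 in sham, 18.1 in 6-OHDA and 25.23 in 6-OHDA+NDST3. At the start site it was 12.61 in sham, 13.4 in 6-OHDA and 19.42 in 6-OHDA+NDST3, so that the upstream median was 1.31, 1.35 and 1.3 times as high in that order. The downstream flank lay between them, with medians of 13.73, 15.4 and 21.99, or 1.09, 1.15 and 1.13 times the median at the start. The spread over regions was wide. The middle 50% of upstream flank regions in sham ran from 11.55 to 23.17, and those at the start from 7.56 to 19.14. Regions were called by the authors at 100 bases in most cases, and 25.4% of upstream flank regions, 19.9% of downstream ones and 31.5% of those at the start were wider. Per kb of width, the medians in sham were 146 upstream, 130 downstream and 110 at the start.

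The median signal of listed regions did not fall away with distance on the upstream side, but their number did. It went from 904 at -400 to -300 bp to 164 at -1000 to -900 bp. Positions without a listed region are not in the medians. In bins of 100 bp, the sham median stayed between 16.1 and 17.12 from -1000 to -300 bp, dropped to 11.55 in the bin from -100 to 0 bp, and was 17.53 from 200 to 300 bp. Beyond 500 bp downstream it was 13.55 to 14.12. The 6-OHDA and 6-OHDA+NDST3 columns had their lowest median in the same bin, 11.9 and 17.4. The bin from -600 to -501 bp (677 regions, sham median 16.51) and the bin from -500 to -401 bp (940 regions, 17.11), on each side of the limit, were close to each other.

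**Figure D1:**
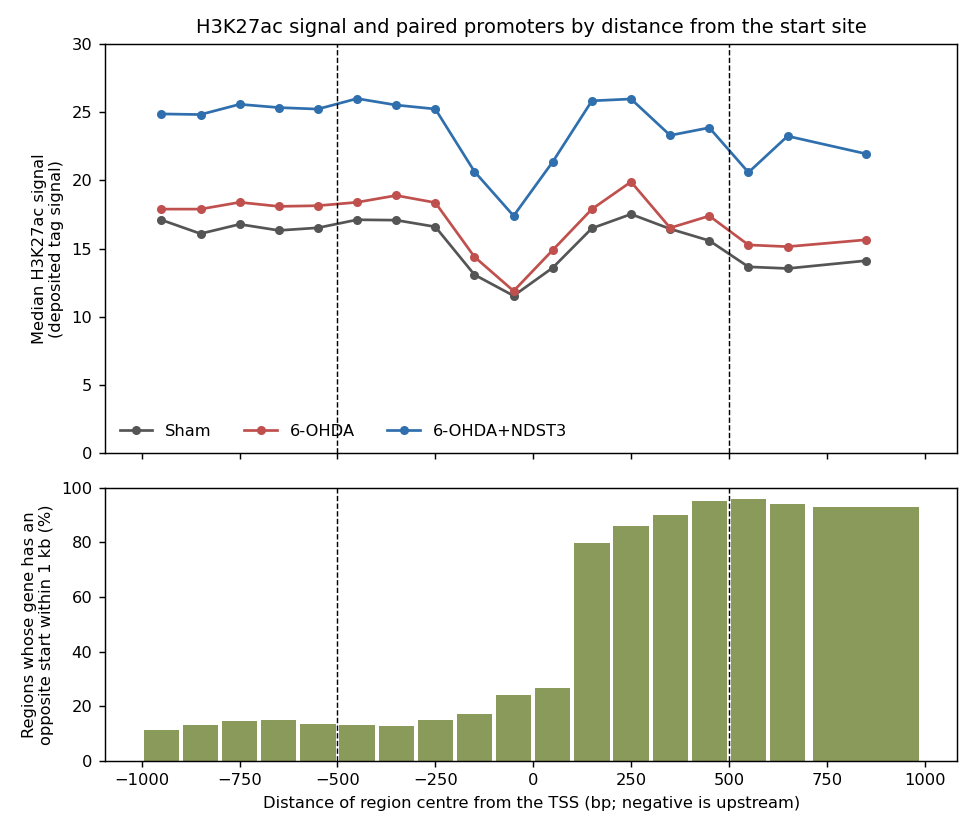
Upper panel, median deposited H3K27ac tag signal (y axis) in bins of distance from the TSS (x axis, bp) for the 3 groups; lower panel, percent of regions in the same bins whose gene has a start on the opposite strand within 1000 bp upstream. Dashed lines mark the 500 bp limit, bins are 100 bp wide except the last, which joins the 58 regions beyond 700 bp; the lowest medians lie at -100 to 0 bp and the paired share passes 79% from 100 bp downstream on.

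Within promoters, too, either flank tended to be above the start. A flank region and a region at the start were taken as one promoter when they pointed to the same start position within 2 bp. In 252 genes with an upstream flank region and a region at the same start, the flank was higher in 175 genes in sham (69.4%), in 152 in 6-OHDA (60.3%) and in 156 in 6-OHDA+NDST3 (61.9%). The median log2 ratio of flank to start, after adding 1 to each signal, was 0.40, 0.30 and 0.27. For the 55 genes with a downstream flank region and a region at the same start, the flank was higher in 37, 39 and 34 genes, with median log2 ratios of 0.58, 0.35 and 0.22. Most genes with a flank region had no region at the start at all. A region at any of their starts was listed for 293 of the 1545 upstream genes (19%) and for 65 of the 263 downstream genes (24.7%).

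The listed downstream flank regions belonged almost entirely to paired promoters. Listed distances ran from -1000 to 943 bp. Of the 258 downstream flank genes that matched a RefSeq gene, 244 (94.6%, exact 95% interval 91.1 to 97, counting error only) were paired. That is, a gene on the opposite strand had a start within 1000 bp upstream of any of their own starts. The share was 14% (213 of 1526, interval 12.3 to 15.8) for upstream flank genes. For genes with a region at the start it was 25.3% (904 of 3569, interval 23.9 to 26.8). These intervals do not cover the choice of listed regions. For each region, the shortest gap between starts of the pair was added to the listed distance. The sum was within 1000 bp for 262 of 276 matched downstream flank regions. Such a region lies on the partner's upstream side if its distance refers to the start with that gap, which was not checked. The step came at 100 bp downstream. From 0 to 100 bp, 26.7% of regions belonged to a paired gene, and from 100 to 200 bp 79.7% did. The number of listed regions fell at the same place, from 1892 to 310. How regions were chosen for listing is not known. The part of that choice in the paired share and in the upstream and downstream counts was not tested. Fewer downstream flank genes were protein coding, 85.3% against 91.1% upstream and 91.4% at the start. On the same condition, the distance of a downstream flank region is that to the nearer start of a pair. The split into upstream and downstream is largely one between genes without a close partner and genes with one. The downstream flank regions of unpaired genes were too few (14) to describe the downstream side of a lone promoter. Among upstream flank regions, the 259 of paired genes and the 1624 of unpaired genes had close medians, 16.82 and 16.43 in sham, 18.15 and 18.1 in 6-OHDA, and 26.1 and 25.05 in 6-OHDA+NDST3.

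The flank regions of highest signal were named on each side. On the upstream flank the highest mean over the groups belonged to Rn18s, the 18S ribosomal RNA (211, 185 and 199 in sham, 6-OHDA and 6-OHDA+NDST3). This is a multi-copy gene, and reads of its copies cannot be assigned to one place. Next came Kdm6a, an H3K27 demethylase, at -606 bp (77.42, 74.6 and 99.86) and Ppp2r1a, the scaffold subunit of protein phosphatase 2A, at -589 bp (74.41, 71.25 and 83.79). Neither the Kdm6a nor the Ppp2r1a region changed by 1.5-fold between any groups. On the downstream flank the highest were Lpxn, a focal adhesion adaptor, at 509 bp (68.92, 40.75 and 56.55), Cpeb3, a regulator of mRNA translation at synapses, at 610 bp (20.1, 38.7 and 89.75), and 5430402O13Rik at 518 bp (44.88, 47.15 and 53.63). All 3 are paired, with Zfp91 70 bp from Lpxn, Marchf5 32 bp from Cpeb3 and Cycs, the cytochrome c gene, 74 bp from 5430402O13Rik. Cpeb3 is among them through its 6-OHDA+NDST3 value. At the other end, 7 of 8 upstream flank regions of Rn4.5s, another multi-copy RNA gene, stood at 0.5 in every column.

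The shares of regions that differed between groups were alike at the 3 positions. Log2 ratios were taken after adding 1, and a region counted as changed past 1.5-fold. The 98 regions of the table under 1 in all groups were left out, which kept 1891 upstream flank regions, 280 downstream flank regions and 3879 at the start. In 6-OHDA against sham, 413 upstream regions (21.8%), 63 downstream regions (22.5%) and 857 at the start (22.1%) were higher, where 22.2% of all regions were. Lower were 228 (12.1%), 39 (13.9%) and 540 (13.9%), where 12.9% of all regions were. The median log2 ratios were 0.13 upstream, 0.16 downstream and 0.12 at the start. In 6-OHDA+NDST3 against sham, 875 upstream (46.3%), 132 downstream (47.1%) and 1805 start regions (46.5%) were higher, where 46.8% of all regions were, and 45 (2.38%), 8 (2.86%) and 126 (3.25%) were lower, where 2.88% of all were. The medians were 0.53 in each. Centred on the median ratio of all regions, the shares higher and lower in 6-OHDA against sham became 15.2% and 16.2% upstream and 14.6% and 16.8% downstream, and in 6-OHDA+NDST3 against sham 19.6% and 15.8% upstream and 20.4% and 14.6% downstream. Uncentred, each exact binomial interval of a flank share held the share of all regions. Both contrasts use the same sham column, and the second is touched by the choice of listed regions named above. In 6-OHDA+NDST3 against 6-OHDA, 600 upstream regions (31.7%) and 94 downstream regions (33.6%) were past 1.5-fold, where 32.3% of all regions were. None was lower, as the listing fixes, and that contrast is given as a description only.

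**Figure D2:**
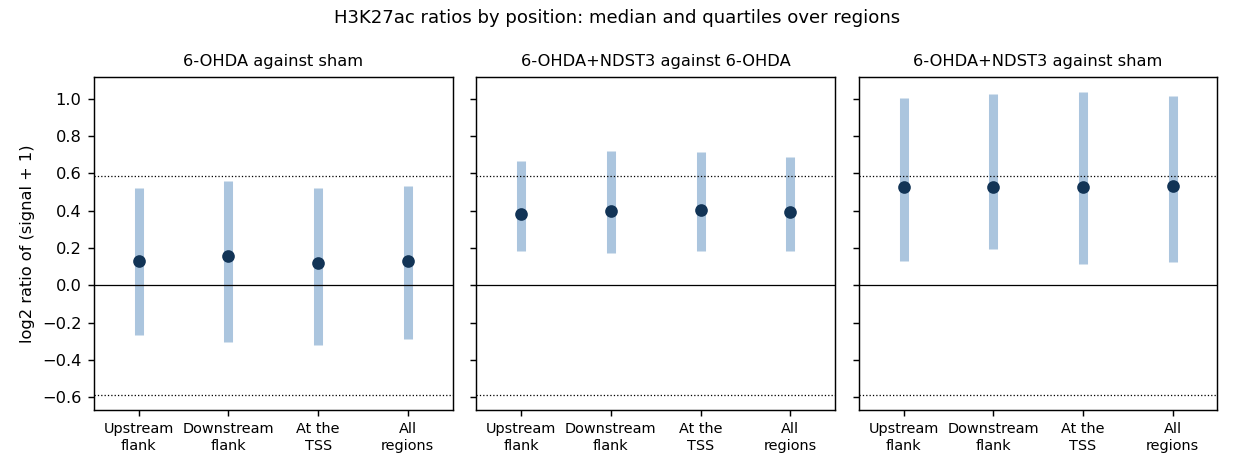
Median (point) and quartiles (bar) over regions of the log2 ratio of H3K27ac signal + 1 in 3 contrasts, for upstream flank, downstream flank, TSS and all regions. Dotted lines mark 1.5-fold, and the medians differ by at most 0.04 between positions within a panel; all listed regions have 6-OHDA+NDST3 at or above 6-OHDA.

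The ratio of a flank and that of its own start were set side by side. Among the 252 genes with both at the same start, 143 had an upstream flank ratio above 0 in 6-OHDA against sham, and the start ratio was above 0 in 85 of those (59.4%). Of the 109 other genes, the start ratio was above 0 in 62 (56.9%). Past 1.5-fold, 52 flanks were higher, and the start was higher too in 14 (26.9%), where 26.6% of the starts in these genes were higher. On the downstream side, 30 of 55 genes had a flank ratio above 0, and the start ratio was above 0 in 19 of those (63.3%) and in 10 of the 25 others (40%). Neighbouring regions on the upstream flank were compared in the same way. In 333 neighbouring pairs at the same start, with centres a median of 177 bp apart, the near region was above 0 in 67.6% of the pairs whose far region was, and in 47.4% of the others. The median size of the difference between neighbours was 0.43 on the log2 scale, and the quartiles of the ratio over all upstream flank regions were -0.265 and 0.52. These shares are descriptions of 2 pooled columns, and points from one promoter share their libraries.

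Only 7 genes had a listed region on both flanks, and in just 2 of them did the flanks belong to the same start. At Eif4a2, an RNA helicase of translation initiation, the upstream region at -601 bp had 19.6, 9.95 and 11.94 in sham, 6-OHDA and 6-OHDA+NDST3, and the downstream region at 724 bp had 24.34, 22.1 and 23.64. The downstream side was higher in every group, with a log2 ratio of upstream to downstream of -0.30, -1.08 and -0.93. At Oxr1, a gene of resistance to oxidative damage, the mean of 2 upstream regions was 28.91, 39.28 and 50.61, and the downstream region at 733 bp had 27.26, 33.8 and 34.81. Here the upstream side was higher in every group, by 0.08, 0.21 and 0.53 on the log2 scale. The flanks of Mia2, Tmem135, Dennd4b, Aktip and G3bp2 belonged to different starts of the gene. Of these, G3bp2, a stress granule protein, and Aktip had the largest log2 ratios of upstream to downstream, 1.34 and 1.22 as means over groups, and Mia2 turned from -0.53 in sham to 0.54 in 6-OHDA.

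Among upstream flank regions with at least the median signal of the table (a mean of 18.4), the highest ratios in 6-OHDA against sham rested on low sham values. Speg, a muscle kinase gene, had 2.21 in sham, 10.9 in 6-OHDA and 42.39 in 6-OHDA+NDST3 at -810 bp, a log2 ratio of 1.89 for 6-OHDA. Mettl17, a factor of mitochondrial ribosome assembly, had 1.79, 9.15 and 47.28 at -906 bp (log2 1.86). Myh14, a non-muscle myosin heavy chain, had 5, 20.05 and 81.45 at -780 bp (1.81). All 3 reached the required mean through their 6-OHDA+NDST3 value, so that the order of the groups follows from the way they were chosen. Other regions of these genes did not follow. The region of Speg at -15 bp had 13.09, 6.95 and 11.91, and that of Myh14 at -188 bp had 3, 2 and 5. The lowest ratios belonged to C030006K11Rik at -802 bp (31.21, 7.45 and 19.87, log2 -1.93), Wwc2, a regulator of Hippo signalling, at -896 bp (53.83, 16.4 and 38.17, log2 -1.66) and Htt, the huntingtin gene, at -619 bp (23.15, 7.95 and 24.35, log2 -1.43). Their 6-OHDA value is at or under both others by the choice of the regions and the listing. The Wwc2 region at -38 bp had 9.29, 12.65 and 16.68, so its flank and start were ordered differently.

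On the downstream flank the highest ratios in 6-OHDA against sham were those of Ep400, a chromatin remodelling ATPase, at 585 bp (2.82, 11.15 and 89.2, log2 1.67), Chmp1b2 at 684 bp (6.51, 21.6 and 41.04, log2 1.59) and Desi1, a desumoylating peptidase, at 611 bp (7.75, 23.85 and 33.39, log2 1.51). Ep400, Chmp1b2 and Desi1 all reached the required mean through their 6-OHDA+NDST3 value. The nearer regions of Chmp1b2 and Desi1 moved less. The Chmp1b2 region at 496 bp had 20.6, 20.4 and 21.89, and the Desi1 region at 459 bp had 14.45, 17.15 and 18.71. The lowest were Gm38250 at 524 bp (28.68, 7.95 and 18.88, log2 -1.73), E530011L22Rik at 732 bp (28.2, 14.15 and 14.66, log2 -0.95) and Atg2b, a lipid transfer protein of autophagy, at 589 bp (25.6, 12.95 and 32.87, log2 -0.93). The other regions of Atg2b were also lower in 6-OHDA than in sham, with 29.75, 18.15 and 18.65 at 281 bp and 34.22, 15.4 and 26.33 at 426 bp, and so was that of Gm38250 at 335 bp (21.14, 14.9 and 19.87). All 6 of these genes are paired, and the partners of Chmp1b2, Gm38250 and E530011L22Rik are Tent5d, Atp6v0d1 and Zfp651, 143, 116 and 90 bp away.

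**Figure D3:**
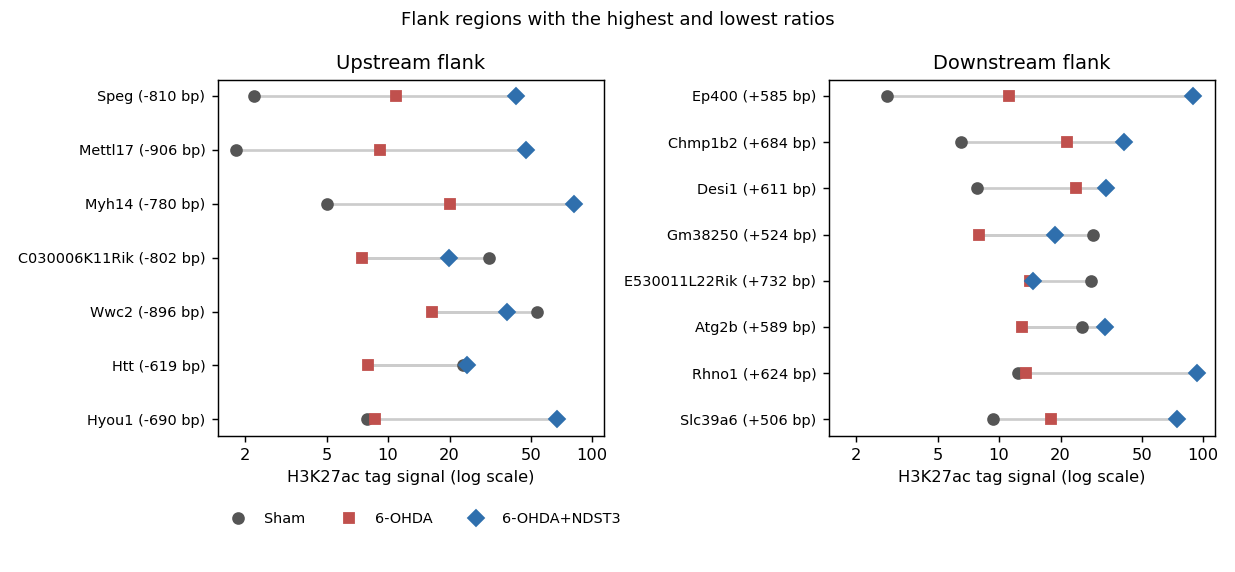
H3K27ac tag signal (x axis, log scale) of the flank regions named for the highest and lowest ratios in 6-OHDA against sham and the highest in 6-OHDA+NDST3 against 6-OHDA; circles are sham, squares 6-OHDA and diamonds 6-OHDA+NDST3, each 1 pooled value. The 3 highest upstream regions in 6-OHDA against sham have sham values of 1.79 to 5.

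Among the largest 6-OHDA+NDST3 values relative to 6-OHDA were, upstream, those at Hyou1, a chaperone of the endoplasmic reticulum (7.92 in sham, 8.65 in 6-OHDA and 67.04 in 6-OHDA+NDST3 at -690 bp) and at Mettl17 (above). Downstream they were Ep400 (above), Rhno1, a DNA damage response gene, at 624 bp (12.34, 13.6 and 93.26) and Slc39a6, a zinc transporter, at 506 bp (9.33, 17.85 and 73.95). Hyou1, Rhno1 and Slc39a6 also reached the required mean through their 6-OHDA+NDST3 value. The Hyou1 region at -437 bp had 8.99, 14.65 and 18.59, the Rhno1 region at 223 bp had 24.51, 19.9 and 20.92, and the Slc39a6 region at -44 bp had 9.5, 3.5 and 5. The named regions were picked as extremes, so their contrast with the other region of the gene is not read as a result. At the other end 24 upstream flank regions above the median signal had equal 6-OHDA and 6-OHDA+NDST3 values, so 3 lowest could not be told apart. Downstream the lowest were Rsf1 at 531 bp (16.1, 23.85 and 23.85), A230056J06Rik at 530 bp (35.45, 32.55 and 33.05) and Tmem186 at 543 bp (18.43, 24.6 and 25.1).

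Few genes of the dopamine neuron, microglia, oligodendrocyte and vascular lists had an H3K27ac region at any position. The H3K27ac regions named 7253 genes, where the RNA-seq counts covered 20328. Of the 7253, 1801 (24.8%) had a flank region. The list counts here and below run over whole lists, with or without a listed region, so 24.8% is not their base share. No dopamine neuron gene (of 20), microglia or macrophage marker (of 26), oligodendrocyte marker (of 20) or endothelial and mural marker (of 24) had a flank region, and they held a region of any position for 0, 1, 1 and 2 genes. Of 16 astrocyte markers, 3 had a region of any position, and Vim at -752 bp (18.58, 11.45 and 22.9) and Fgfr3 at -585 bp (6.52, 9.7 and 15.52) had one on the flank. Of 29 pan-neuronal genes, 10 had a region of any position, and Dpysl3, Map1a and Rbfox1 had one on the flank. Neither Th, the rate-limiting enzyme of dopamine synthesis, nor Ncoa7, a nuclear receptor coactivator, had a flank region; Ncoa7 had 5 regions, all within 354 bp of a start. The labelled tissue was checked in RNA-seq by Map1a, a neuronal microtubule protein, at 674 to 1970 CPM (read count scaled to library size) in the 5 libraries.

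Of the 16 gene lists, the immediate early genes had the most flank regions per gene of the list. Of its 27 genes, 9 had any region and 8 had flank regions, 9 regions in all and all upstream. Of the 9, 7 had a lower signal in 6-OHDA than in sham, as did 4724 of the 11326 regions of the table with a signal of at least 1. Past 1.5-fold, 2 were lower and 1 was higher, where 12.9% and 22.2% of all regions were, and the list's median log2 ratio was -0.39, where the median of all regions was 0.13. Junb, an AP-1 subunit, had 35.25, 13.9 and 17.38 at -778 bp and 36.73, 23.85 and 27.33 at -919 bp in sham, 6-OHDA and 6-OHDA+NDST3. Klf4 had 41.76, 31.8 and 37.76, and Nr4a3, an orphan nuclear receptor, 37, 25.85 and 26.86. Klf6 went the other way, with 13.24, 32.55 and 46.41. RNA-seq of the same genes ran against the flank signal for Junb and Klf4. By library, Junb stood at 12.8 and 12.6 CPM in sham, at 54 in 6-OHDA, and at 21.2 and 28.3 in 6-OHDA+NDST3. It rose in 6-OHDA (log2 2.08 ± 0.19 SE, adjusted p = 0.00823, by Benjamini-Hochberg over edgeR's quasi-likelihood p-values) and fell in 6-OHDA+NDST3 against 6-OHDA (log2 -1.13 ± 0.19, adjusted p = 0.0361). Klf4 rose by 0.96 ± 0.21 (adjusted p = 0.0237), Klf6 by 1.53 ± 0.30 (adjusted p = 0.0185), and Nr4a3 had 1.01 ± 0.33 (adjusted p = 0.0684).

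Subunits of oxidative phosphorylation had 8 upstream and 2 downstream flank regions, in 9 of 72 genes. Their median log2 ratio was 0.36 in 6-OHDA against sham, with 3 past 1.5-fold higher, where 22.2% of all regions were, and none lower, where 12.9% were. In 6-OHDA+NDST3 against sham it was 0.92, where the median of all regions was 0.53, and 7 were past 1.5-fold higher, where 46.8% of all regions were. Cox6a1, a subunit of complex IV, had 8.23, 15.6 and 49.92, Ndufa10 of complex I 12.92, 25.1 and 30.01, Uqcrq of complex III 14.09, 24.35 and 27.33 at -756 bp and 15.07, 20.4 and 22.89 at -618 bp, and Ndufa1 22.97, 24.6 and 27.22. In none of these 4 did RNA pass the test in 6-OHDA against sham, with log2 changes of -0.14 ± 0.11 for Cox6a1 (adjusted p = 0.392) and -0.41 ± 0.12 for Ndufa10 (adjusted p = 0.0562). Ribosomal protein genes had 15 flank regions in 14 of 75 genes. Their median log2 ratio in 6-OHDA against sham was -0.11, where that of all regions was 0.13. Past 1.5-fold, 1 region was higher, where 22.2% of all regions were, and 1 was lower, where 12.9% were. Rpl13a, with a higher flank in 6-OHDA (23.51, 28.05 and 45.66), had RNA means of 251 CPM in sham and 469 CPM in 6-OHDA. The flank was lower in 6-OHDA for Rps23, with 41.76, 32.3 and 43.13, and for Rps12, with 37.73, 32.3 and 48.1. Their RNA rose in 6-OHDA, Rps12 from a mean of 122 to 280 CPM (adjusted p = 0.00823) and Rps23 from 162 to 266 (adjusted p = 0.0119).

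Of 38 presynaptic genes, 2 had a flank region, and both were past 1.5-fold higher in 6-OHDA, where 22.2% of all regions were. Syt2, a fast calcium sensor of release, had 5.32, 11.15 and 44.6 at -543 bp, and Rims1, an active zone scaffold, 11.69, 19.15 and 24.22 at -631 bp. Their RNA went the opposite way in the lesion. Syt2 had 366 and 541 CPM in sham, 30 in 6-OHDA, and 463 and 203 in 6-OHDA+NDST3, a fall of log2 -3.92 ± 0.65 (adjusted p = 0.0127) and a rise of 3.47 ± 0.63 against 6-OHDA (adjusted p = 0.0371). Rims1 fell by log2 -1.32 ± 0.15 (adjusted p = 0.00847) and rose by 1.10 ± 0.15 (adjusted p = 0.032). Synj1, a presynaptic phosphatase on the list of inherited Parkinson disease, had a downstream region with 23.13, 17.4 and 27.84 and RNA means of 373 CPM in sham, 134 in 6-OHDA and 308 in 6-OHDA+NDST3, with a fall and a rise that both passed (adjusted p = 0.00823 and 0.032). Dnajc13, the other flank gene of that list, had 13.85, 7.95 and 10.22.

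Antioxidant genes had 7 upstream flank regions in 4 of 31 genes, with a median log2 ratio of 0.01. Txn1, thioredoxin, had 3 regions, with 56.82, 43.75 and 50.11 at -605 bp, 23.15, 23.35 and 35.27 at -787 bp, and 18.68, 25.1 and 27.71 at -934 bp, so that the lesion value was lower near the start and higher far from it. Txnrd2, the mitochondrial thioredoxin reductase, had 28.77, 44.95 and 68.05, and Prdx1, a peroxiredoxin, 18.44, 26.8 and 53.6 at -640 bp. A further Prdx1 region at -793 bp had 25.62, 20.9 and 20.9, so that the regions of this gene went opposite ways in 6-OHDA. Prdx1 RNA rose in 6-OHDA by log2 1.37 ± 0.14 (adjusted p = 0.00823) and Txn1 RNA by 0.71 ± 0.17 (adjusted p = 0.0315). Of the lysine acetylation genes, 4 of 37 had 6 flank regions. Kat6a, an acetyltransferase, had 8.37, 23.6 and 35.4, and Hdac6, a deacetylase, had 15.58, 12.9 and 29.03 at -604 bp and 8.15, 13.4 and 16.75 at -778 bp. Hdac4 had 24.62, 21.4 and 41.21 at -863 bp and 19.61, 18.4 and 21.38 at -679 bp, and Kat7 5, 3.5 and 6.5 on its downstream flank. Heparan sulfate genes, the pathway of NDST3, had Ext1 upstream (26.4, 23.85 and 29.4) and Hs2st1 downstream, at 502 bp (23.95, 17.4 and 18.42) and 782 bp (18.09, 19.4 and 26.36), with no region past 1.5-fold against sham. The DNA repair genes Ogg1, Chek1, Xrcc4 and Lig3 had 1 flank region each. That of Ogg1, a glycosylase of oxidised guanine, was past 1.5-fold higher in 6-OHDA (10.55, 19.4 and 19.9), where 22.2% of all regions were. The proteasome had 1, Psmc2 (3.39, 4.45 and 8.9).

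**Figure D4:**
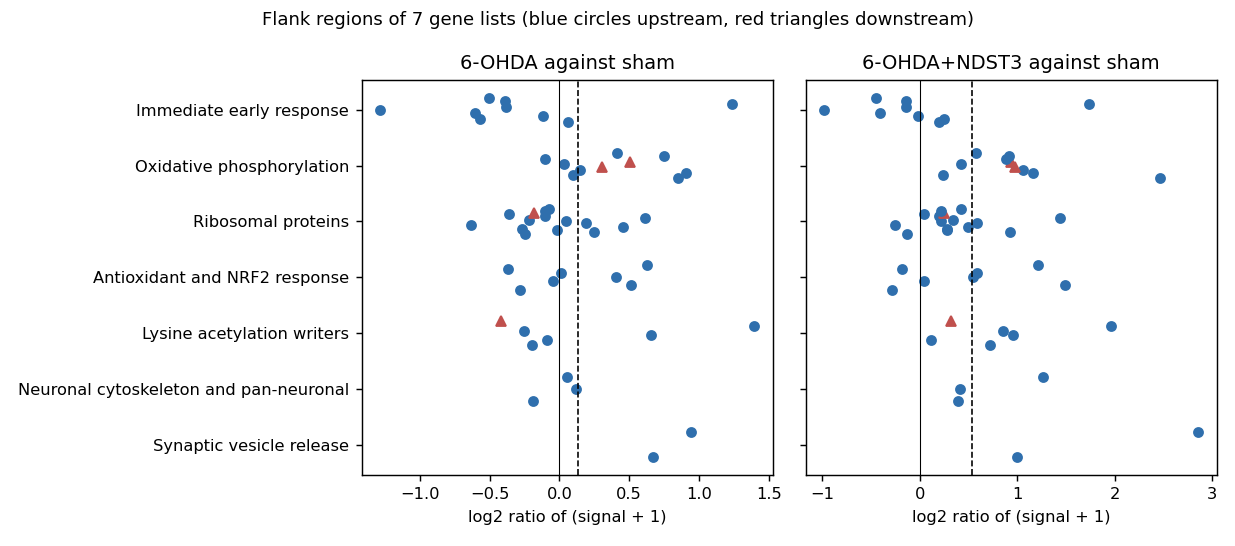
Log2 ratio of H3K27ac signal + 1 (x axis) for each flank region of 7 gene lists; circles are upstream and triangles downstream regions, and the dashed line is the median of all regions, 0.13 in 6-OHDA against sham and 0.53 in 6-OHDA+NDST3 against sham. Of the 9 immediate early regions, 8 lie left of the dashed line in the left panel.

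Genes with a flank region were then taken to RNA-seq, where 2 sham, 1 6-OHDA and 2 6-OHDA+NDST3 libraries were fitted together. Of 1419 upstream flank genes tested in 6-OHDA against sham, 272 were higher (19.2%) and 333 lower (23.5%), where 18.8% and 17.1% of all 19300 genes tested were. Of 247 downstream flank genes, 46 (18.6%) were higher and 52 (21.1%) lower. Of 3393 genes with a region at the start, 599 (17.7%) were higher and 668 (19.7%) lower. In 6-OHDA+NDST3 against 6-OHDA, 178 upstream genes (12.5%), 29 downstream genes (11.7%) and 392 start genes (11.6%) were higher, where 9.06% of all genes were, and 104 (7.33%), 17 (6.88%) and 215 (6.34%) were lower, where 6.59% of all were. Both contrasts share the single 6-OHDA library. Median levels, as log2(CPM + 1), were 5.48 for upstream genes, 5.12 downstream, 4.74 at the start and 4 over all genes tested; the part of level in these shares was not tested. The calls rest on few libraries: with 1 or the other sham library left out, edgeR called 0 flank genes in both contrasts. At an unadjusted p under 0.05 it then had 540 to 628 upstream and 90 to 106 downstream genes in 6-OHDA against sham, and 500 to 502 and 76 in 6-OHDA+NDST3 against 6-OHDA. The latter contrast also had 0 adjusted calls without 6-OHDA+NDST3 replicate 1 (489 and 66 unadjusted).

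RNA calls were then split by the direction of the flank. Among upstream flank genes, 69 of 360 with a flank past 1.5-fold higher in 6-OHDA against sham had higher RNA (19.2%) and 92 lower RNA (25.6%). Where the flank was past 1.5-fold lower, the shares were 21% and 22.5% of 200 genes, and in between 19.3% and 23.2% of 985. A gene with several upstream flank regions was counted in each class that 1 of them fell in, so these classes overlap and sum to more than the 1419 genes tested. Downstream, RNA was higher for 11 and lower for 15 of 56 genes with a higher flank, and higher for 5 and lower for 8 of 37 with a lower flank. Single genes went both ways. Their flanks were named for an extreme signal or ratio, some through the 6-OHDA+NDST3 value, so no result is read from these examples. For Myh14 the flank was higher in 6-OHDA against sham and the RNA lower (log2 -0.88 ± 0.20). For Wwc2 the flank was lower and the RNA higher (log2 0.36 ± 0.10), and the RNA change passed the test in each. Cpeb3, whose flank was higher in 6-OHDA, had 143 and 168 CPM in sham, 52.5 in 6-OHDA, and 130 and 110 in 6-OHDA+NDST3 (log2 -1.57 ± 0.18, adjusted p = 0.00832, and 1.19 ± 0.17, adjusted p = 0.0335). For Atg2b the flank and the RNA were both lower, with log2 -1.08 ± 0.20 (adjusted p = 0.017), and so they were for Htt with -0.83 ± 0.20 (adjusted p = 0.032) and Gm38250 with -1.46 ± 0.32 (adjusted p = 0.0254). For Speg, Mettl17, Ep400, Desi1 and Rhno1 no change of RNA passed the test in either contrast.

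**Figure D5:**
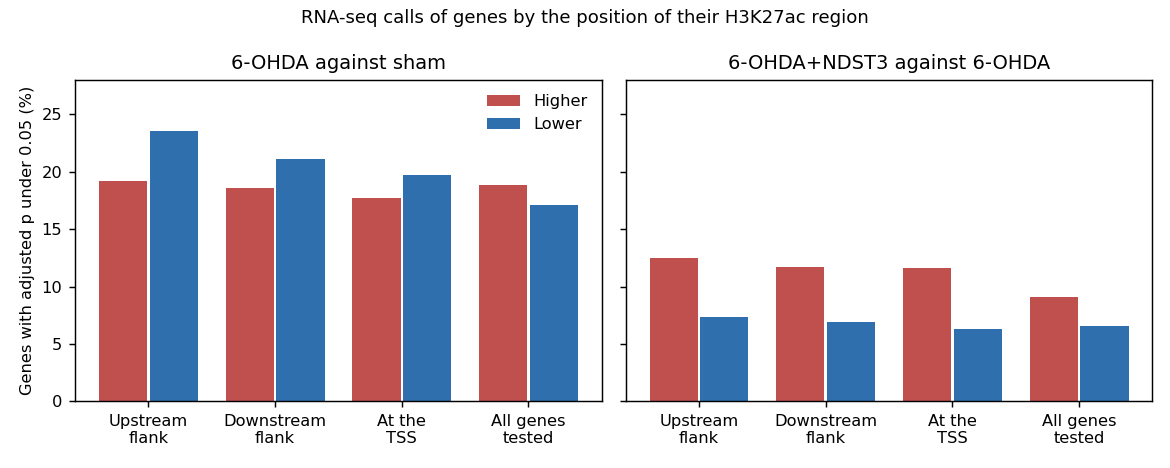
Percent of genes (y axis) called higher or lower in RNA-seq at an adjusted p under 0.05, by the position of their H3K27ac region and over all 19300 genes tested, in 2 contrasts that share the 6-OHDA library. Lower calls in 6-OHDA against sham reach 23.5% of upstream flank genes and 17.1% of all genes.

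Few H3K27ac regions at any position overlapped a listed region of open chromatin. The deposited positions of both assays were compared as they stand, and it was not checked that they share a genome build. In the ATAC-seq table, with 1 library per group, a region shared at least 1 base with 54 upstream flank regions (2.83%, exact interval 2.13 to 3.67), 8 downstream flank regions (2.85%, 1.24 to 5.53) and 135 regions at the start (3.45%, 2.9 to 4.07). Over all H3K27ac regions it was 386 of 11424 (3.38%), and the interval of each flank holds that share. The median ATAC-seq signal of the 54 was 14.55 in sham, 15.75 in 6-OHDA and 17.4 in 6-OHDA+NDST3. Rhno1 was the gene named above for its ratio with an overlap on its flank, and its ATAC-seq signal was 20.01, 26.25 and 26.25 where its H3K27ac signal was 12.34, 13.6 and 93.26.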

How the data were processed

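H3K27ac CUT&RUN (2 libraries per group), RNA-seq (2 sham, 1 6-OHDA and 2 6-OHDA+NDST3 libraries) and ATAC-seq (1 library for each group) were used, all from mouse brain. The scRNA-seq tables and 10 FPKM and TPM columns were not used. The authors deposited a tag signal per region and group for CUT&RUN and ATAC-seq, with the libraries of a group pooled; its normalization is not given in the sources used here. The study's methods name MACS2 in broad mode for ATAC-seq peaks, and the CUT&RUN peak caller is not given in the sources used here. The submitters' processing notes name Trim Galore, Bowtie and mm10. The CUT&RUN positions lie elsewhere than in that build. The start implied by a CUT&RUN region lay within 1000 bp of a GRCm38.p6 start of its gene for 485 of 11243 regions (4.31%). No sequence was therefore read by these coordinates, region coordinates are not printed, and gene pairs were found by symbol in the GRCm38.p6 RefSeq annotation. Promoter sequences matched 1439 of 1801 flank genes (79.9%), under the 80% at which shares of CpG or motifs over the flank genes would be compared, so that check is void.

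The authors deposited read counts per gene for RNA-seq. Counts (51003699 to 70533326 per library, 20328 genes) were fitted over all 5 libraries with edgeR 4.0.16 in R 4.3.3, scaled with TMM, filtered with filterByExpr and tested by quasi-likelihood with 2 residual degrees of freedom. The standard error is the log2 change divided by the square root of F, and genes were called at a Benjamini-Hochberg adjusted p under 0.05. The lone 6-OHDA library has no spread of its own and takes that of the other groups, and the labels do not say that replicates come from separate animals, so p-values measure the spread between these libraries, which may be technical. Run on simulated counts, the fit recovered most of the changed genes, but false calls made up a larger share of its calls than the adjusted p limit allows. H3K27ac ratios used a pseudocount of 1 and, with no replicate columns, had no test; exact binomial intervals (95%) cover counting error of regions only. DESeq2 1.42.0, other scaling, filters, thresholds, pseudocounts, distance limits and left-out libraries were run as alternatives.

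Named regions are, per flank, the 3 of highest mean signal and the 3 highest and lowest ratios in 6-OHDA against sham and in 6-OHDA+NDST3 against 6-OHDA among regions with a gene name and at least the median signal, the extremes of genes with both flanks, and up to 4 regions per gene list. Kat7, Dnajc13, Rn4.5s and second regions of a gene were added after their values were seen. Results for some of the genes so named were left out here. The members and lists were chosen with earlier results of these data known. Calculations outside R used Python 3.11.15.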

Additional observations from a re-analysis of the deposited data

How the results depend on the processing

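Both flank medians stayed above the start median in every group under the alternatives run (signal per kb, limits of 400 and 600 bp for flanks and 200 bp for starts, 1 region per gene). Per kb, the log2 ratio of the downstream to the start median was 0.243 in sham, 0.33 in 6-OHDA and 0.285 in 6-OHDA+NDST3; within genes that hold both (chosen after seeing the data) the upstream value in 6-OHDA was 0.272. In 6-OHDA against sham, upstream higher shares were 14.5% with a pseudocount of 5, 15.2% centred on the median ratio, 6.77% past 2-fold and 24% in regions 100 bases wide (chosen after seeing the data); lower shares were 7.46%, 16.2% and 3.6%, and 7.39% at or above the median signal. So centring turned more higher than lower into the reverse. Downstream, higher shares were 14.3%, 14.6% and 6.43% with the pseudocount, centring and 2-fold, and lower shares 8.73% above the median signal and 4.29% past 2-fold. In 6-OHDA+NDST3 against sham, upstream higher shares were 38.5%, 19.6%, 25.1% and 49.3%, and lower shares 1.37% (pseudocount), 1.14% (median signal), 15.8% (centred) and 0.635% (2-fold); downstream, higher shares were 37.9%, 20.4% and 26.4%, and lower shares 0.794% (median signal), 14.6% (centred) and 0.714% (2-fold). For genes with both flanks, the median log2 ratio was 0.212, 0.353 and 0.297 from 400 bp (10 genes), and 0.674 in 6-OHDA and 0.66 in 6-OHDA+NDST3 with the strongest region. With at least 50% overlap, ATAC-seq regions lay under 1.47% of upstream and 1.07% of downstream flanks. The cause of these shifts was not tested, apart from the stricter thresholds themselves.

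RNA calls of upstream flank genes in 6-OHDA against sham numbered 605, and 0 to 628 with 1 library left out; downstream there were 98, and 0 to 100. In 6-OHDA+NDST3 against 6-OHDA there were 282 (0 to 277) and 46 (0 to 44). Each 0 came without a sham library or, in the last contrast, also without 6-OHDA+NDST3 replicate 1. A fold of 2 with a raw p under 0.05 gave 263 and 35, then 161 and 16, and DESeq2 gave 476 upstream genes in the last contrast. With a replicate block the counts were 142 and 21, then 0 and 0 (400 and 62 at an unadjusted p under 0.05); the deviations of same-numbered libraries correlated at -0.337, so the samples share only a number. Crossed numbers (chosen after seeing the data) gave 645 and 103, then 404 and 60.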
